A study of Mus musculus with 8 samples.

Results

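The inflammasome, pyroptosis and necroptosis machinery was followed through 10 genes (Nlrp3, Pycard, Casp1, Casp4, Gsdmd, Il1b, Il18, Casp8, Ripk3 and Mlkl), taken by exact gene name from the 43346 genes of the deposited table. All 10 were found once each, and all 10 passed the filter on low counts. RNA came from cortex and hippocampus of mice at 1.5 months of age, with 1 library of total RNA per animal. The 4 control animals carry the genotype label GFP, for green fluorescent protein alone, and the other 4 the label GFP-GR100, for GFP joined to 100 glycine-arginine repeats. Each group has 2 females and 2 males. Poly(GR) belongs to the dipeptide repeat proteins that are translated from the C9orf72 repeat expansion, a cause of frontotemporal dementia and amyotrophic lateral sclerosis, and the series asks how it affects translation and stress granules. Both constructs share an adeno-associated virus plasmid carrying enhanced GFP. Its promoter, the cells it reaches, the route of delivery and the mouse strain are not stated in the sources used here.

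Inflammasomes are protein platforms that assemble in the cytosol when a sensor such as Nlrp3 meets signs of infection or damage. The adaptor Pycard (ASC) links the sensor to the protease Casp1, which matures the cytokines Il1b and Il18 and cuts Gsdmd, whose freed fragment opens pores in the plasma membrane and kills the cell by pyroptosis. Casp4, the mouse caspase-11, reaches the same end by binding bacterial lipopolysaccharide directly. Necroptosis is a separate lytic death in which the kinase Ripk3 activates the pore-former Mlkl, and Casp8 holds it in check. In the brain most inflammasome components are found in microglia, and many of these genes can be induced by interferons or NF-kappaB.

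Total gene counts ran from 65880460 to 89113010 per library. Values are CPM, counts scaled by TMM to a common library total, on which 3 counts correspond to 0.0328 to 0.0495 CPM. By the test given below, 15 of 20 microglial markers rose in GFP-GR100 and 0 fell, where 2.19% of all genes rose and 0.324% fell. The 5 that did not pass were P2ry12, Tmem119, Fcrls, Selplg and Olfml3. Log2 fold changes of the 20 were uneven, from -0.02 for Fcrls to 1.42 for Trem2. The summed level of the 20 ran from 594 to 847 CPM in GFP and from 1025 to 1166 CPM in GFP-GR100, with no marker at 0. The library GFP 3, a male, supplied the 847 CPM, against 594 to 622 CPM in the other GFP libraries. Of 18 interferon-stimulated genes 17 rose, with sums of 93.4 to 157 CPM in GFP and 637 to 822 CPM in GFP-GR100. Of 14 monocyte and neutrophil markers 9 could be tested, of which 2 rose (Csf3r and Plac8) and 7 did not pass. The 14 summed to 10.8 to 16.0 CPM in GFP and 19.2 to 28.6 CPM in GFP-GR100, with Mmp8, Retnlg and Chil3 at 0 in some library. Csf3r alone had means of 6.48 CPM in GFP and 16.1 CPM in GFP-GR100, where the sums had means of 12.2 and 23.5 CPM. The part of these cell markers in the results below was not tested, beyond the ratios to the microglial markers. In bulk tissue more cells of a type, more RNA per cell and a smaller share of other tissue cannot be told apart. The brain weights listed for the samples were 111.4 to 126.6 mg in GFP and 71.9 to 85.1 mg in GFP-GR100. Their part in these values was not tested.

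In all, 4 of the inflammasome and death genes rose in GFP-GR100 brain: the caspase Casp4 (3.15-fold), the pore-former Gsdmd (2.004-fold), the adaptor Pycard (1.93-fold) and the apical caspase Casp8 (1.605-fold). The cytokine gene Il18, the most abundant of the 10 per length, was at 1.06-fold of its control level and did not pass. Casp1, Il1b and Mlkl were at 1.84-fold to 1.91-fold of their GFP means but did not pass the test. By edgeR's quasi-likelihood test with sex in the model, 4 of 10 rose and 0 fell at an adjusted p under 0.05, where 2.19% of all 20987 genes tested rose and 0.324% fell. At an unadjusted p under 0.05, 7 were higher and 0 lower, where 8.23% of all genes were higher and 7.37% lower. DESeq2 and limma-voom also called 0 of them lower. The count that rose was 2 without GFP 2, GFP 4, GFP-GR100 2 or GFP-GR100 3, and 4 without GFP 3 and GFP-GR100 4, a pair left out after seeing the data. All 10 log2 fold changes were above 0, as were 45.4% of those of all genes, and the median was 0.89, against -0.02 over all genes tested. Values of the groups did not overlap for 6 of the 10, which were higher in GFP-GR100, where 5.03% of all genes were, and for 0 they were lower, where 3.03% of all genes were. The 10 genes were chosen with earlier results of these data known, which limits each of these comparisons with all genes.

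**Figure D1:**
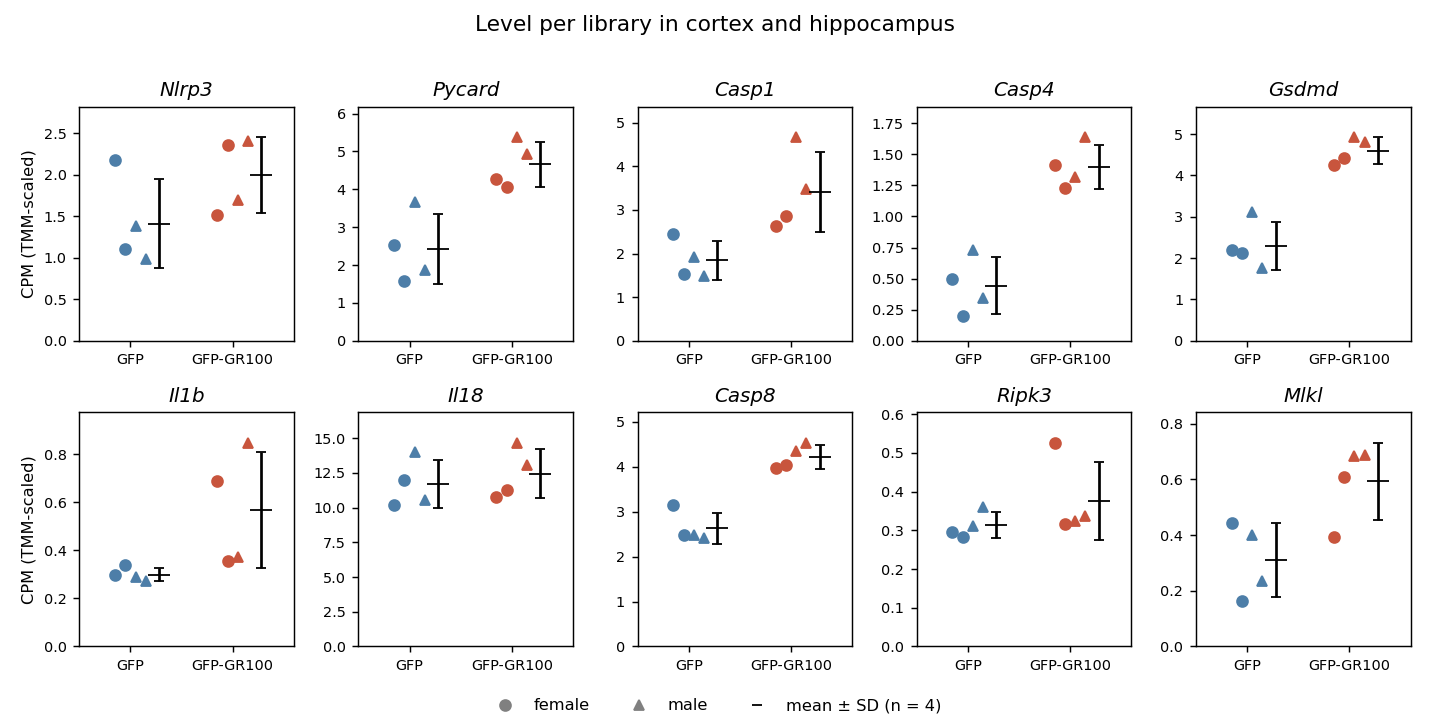
CPM of each of the 10 genes in each library (y axis, TMM-scaled CPM, from 0), for GFP (blue) and GFP-GR100 (red), where females are circles, males are triangles and black bars give the mean ± SD (n = 4). Pycard, Casp1, Casp4, Gsdmd, Il1b and Casp8 have no overlap between the groups, and the ranges of Il18 overlap.

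Of the sensor and the adaptor of the canonical inflammasome, Pycard rose and Nlrp3 did not pass the test. Nlrp3 (chr11:59541568-59566956, mm10) stood at 2.18, 1.11, 1.39 and 0.980 CPM in GFP 1 to 4 and at 1.51, 2.36, 1.69 and 2.41 CPM in GFP-GR100 1 to 4. The groups overlapped, since GFP 1 lay above 2 of the GFP-GR100 libraries, and the difference did not pass (log2 fold change 0.51, SE 0.26, adjusted p = 0.360). Pycard (chr7:127992103-127993867), the adaptor that polymerises into the ASC speck, stood at 2.54, 1.58, 3.66 and 1.87 CPM in GFP and at 4.27, 4.07, 5.37 and 4.92 CPM in GFP-GR100. All GFP-GR100 values were above all GFP values, of which GFP 3 was the highest. Pycard rose from 2.41 ± 0.924 to 4.66 ± 0.599 CPM (SD, n = 4; log2 fold change 0.96, SE 0.21, edgeR adjusted p = 0.0314). Without GFP 3 the log2 fold change was 1.22 (adjusted p = 0.00322). The call was lost without GFP 2 (0.0792), GFP 4 (0.0658) or GFP-GR100 1, 2 or 3 (0.0581, 0.0853 and 0.115), and with no sex covariate (0.0803).

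The inflammatory caspases are neighbours on chromosome 9, with 1562 bases between the end of Casp1 and the start of Casp4, both on the plus strand. Casp4 (chr9:5308828-5336783) had the largest log2 fold change of the 10, over only 15 to 66 counts per GFP library. It stood at 0.495, 0.203, 0.733 and 0.347 CPM in GFP and at 1.41, 1.23, 1.32 and 1.64 CPM in GFP-GR100. The lowest GFP-GR100 value was above the highest GFP value, which was again that of GFP 3. Casp4 rose from 0.444 ± 0.226 to 1.40 ± 0.175 CPM (SD, n = 4), and the log2 fold change was 1.68 (SE 0.31, edgeR adjusted p = 0.0101), and by 2.02 on the log2 scale without GFP 3. Casp1 (chr9:5298517-5307265), which matures the cytokines, stood at 2.46, 1.54, 1.91 and 1.49 CPM in GFP and at 2.63, 2.87, 4.66 and 3.48 CPM in GFP-GR100. Its groups did not overlap either, but GFP 1 and GFP-GR100 1 lay close together, and the difference did not pass (log2 fold change 0.86, SE 0.22, adjusted p = 0.0611). Casp1 passed with limma-voom (0.0475), DESeq2 (0.00514), limma-trend on RPKM (0.0416) and no filter on low counts (0.000123). Casp1 also passed without GFP 1 (0.0111), without GFP-GR100 1 (0.0444) and with the rRNA share as a covariate (0.0124). What is called the rRNA share is the summed share of counts at Yam1, AY036118 and Lars2.

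The DNA before the starts of these 3 inflammasome genes is shown because Casp1 and Casp4 lie side by side and both Pycard and Casp4 rose. The stretches end at the base before the start of each gene in the deposited table. They are taken from the RefSeq promoter table on GRCm38.p6, the assembly behind mm10, at chr9:5298267-5298516 (plus strand), chr9:5308599-5308827 (plus strand) and chr7:127993868-127994117 (minus strand), each written 5′ to 3′. For Casp4 the last 21 bases before the RefSeq start lie inside the deposited gene and are left out. Capitals mark matches to the NF-kappaB motif.
Casp1: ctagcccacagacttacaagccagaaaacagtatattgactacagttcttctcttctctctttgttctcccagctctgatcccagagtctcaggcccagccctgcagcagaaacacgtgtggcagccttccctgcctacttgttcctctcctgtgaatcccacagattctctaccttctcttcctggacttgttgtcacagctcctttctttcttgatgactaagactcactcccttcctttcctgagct
Casp4: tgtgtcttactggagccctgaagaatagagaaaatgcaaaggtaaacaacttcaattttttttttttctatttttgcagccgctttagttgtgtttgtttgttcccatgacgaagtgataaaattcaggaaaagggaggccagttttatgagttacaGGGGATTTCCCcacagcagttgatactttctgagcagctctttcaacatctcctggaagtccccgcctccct
Pycard: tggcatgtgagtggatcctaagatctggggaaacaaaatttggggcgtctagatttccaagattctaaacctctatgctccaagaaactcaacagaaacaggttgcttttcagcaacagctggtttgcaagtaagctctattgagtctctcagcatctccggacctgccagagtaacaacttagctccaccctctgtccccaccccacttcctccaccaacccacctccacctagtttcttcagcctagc

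RefSeq promoters, each from 250 bases before to 50 bases after a start, were matched by symbol for 9 of the 10 genes, in 11 entries. Gsdmd had no entry. The 250 bases before the RefSeq start of Casp8 (chr1:58802252-58802501) lie inside the deposited gene, which starts at 58795374. Casp4 held 2 overlapping matches to the NF-kappaB motif, from 93 to 83 bases before the RefSeq start of the stretch above, and Nlrp3 held 1 match on the other strand, in 1 of its 2 promoters. The motif, searched on both strands after the sequences had been seen, is held by 4.51% of the 32851 promoters in the table. The interferon-stimulated response element, searched by its consensus core, and the gamma-activated site, searched as TTCNNNGAA, had 0 matches in the promoters of these 9 genes and are held by 3.44% and 8.3% of all promoters. These matches describe letters in a short window only.

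Gsdmd (chr15:75862339-75867404), the executioner of pyroptosis, had the smallest p of the 10. It stood at 2.19, 2.12, 3.12 and 1.75 CPM in GFP and at 4.25, 4.43, 4.92 and 4.81 CPM in GFP-GR100. The GFP-GR100 animals lay close together and all above GFP 3, the highest control. Gsdmd rose from 2.30 ± 0.582 to 4.60 ± 0.316 CPM (SD, n = 4), and the log2 fold change was 1.00 (SE 0.17, edgeR adjusted p = 0.00644), and by 1.21 on the log2 scale without GFP 3. Gsdmd was called under all 17 alternatives tried, and Casp4 under the 16 in which it was tested.

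Of the 2 cytokine genes that Casp1 acts on, neither passed the test. Il18 (chr9:50575273-50581837), which acts on lymphocytes to release interferon gamma, stood at 10.2, 12.01, 14.0 and 10.5 CPM in GFP and at 10.8, 11.3, 14.7 and 13.05 CPM in GFP-GR100. The ranges lay over each other, and the log2 fold change was 0.08 (SE 0.11, adjusted p = 0.751). Il1b (chr2:129364570-129371139), the fever cytokine, was held by only 18 to 26 counts per library in GFP and 28 to 63 in GFP-GR100. It stood at 0.297, 0.338, 0.289 and 0.273 CPM in GFP and at 0.690, 0.355, 0.375 and 0.848 CPM in GFP-GR100. GFP-GR100 1 and 4 were well above the controls, while GFP-GR100 2 and 3 lay just over the highest control. The difference did not pass (log2 fold change 0.92, SE 0.35, adjusted p = 0.239). Il1b overlaps the antisense gene Il1bos, which held 0 to 14 counts per library. Whether counting used strand is not stated in the sources used here, so reads of the pair may be mixed.

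Among the necroptosis genes Casp8, the brake, rose, and the effectors Ripk3 and Mlkl did not pass the test. Casp8 (chr1:58795374-58847503), which cleaves the necroptosis kinases, stood at 3.15, 2.49, 2.48 and 2.41 CPM in GFP and at 3.96, 4.05, 4.34 and 4.53 CPM in GFP-GR100. The groups were apart, with GFP 1 standing over the other 3 controls. A predicted gene inside Casp8, on the same strand, held 1 to 22 counts per library, against 184 to 362 for Casp8. Casp8 rose from 2.63 ± 0.349 to 4.22 ± 0.262 CPM (SD, n = 4), and the log2 fold change was 0.69 (SE 0.14, edgeR adjusted p = 0.0225). The call was lost without GFP 2 (0.0752), GFP 4 (0.0632) or GFP-GR100 2, 3 or 4 (0.0634, 0.0844 and 0.0502).

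Ripk3 (chr14:55784996-55788857), the necroptosis kinase, stood at 0.297, 0.284, 0.311 and 0.360 CPM in GFP and at 0.526, 0.317, 0.323 and 0.336 CPM in GFP-GR100. Only GFP-GR100 1 lay above the controls, and the log2 fold change was 0.26 (SE 0.32, adjusted p = 0.716). Mlkl (chr8:111311797-111338177), the membrane-breaking effector, stood at 0.445, 0.162, 0.400 and 0.236 CPM in GFP and at 0.394, 0.609, 0.685 and 0.687 CPM in GFP-GR100. Its GFP-GR100 values were above all controls except in GFP-GR100 1, which lay among them, and the difference did not pass (log2 fold change 0.93, SE 0.36, adjusted p = 0.242). Neither gene passed under any of the 16 alternatives that tested it, and neither did Il1b under its 16 or Nlrp3 and Il18 under 17.

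**Figure D2:**
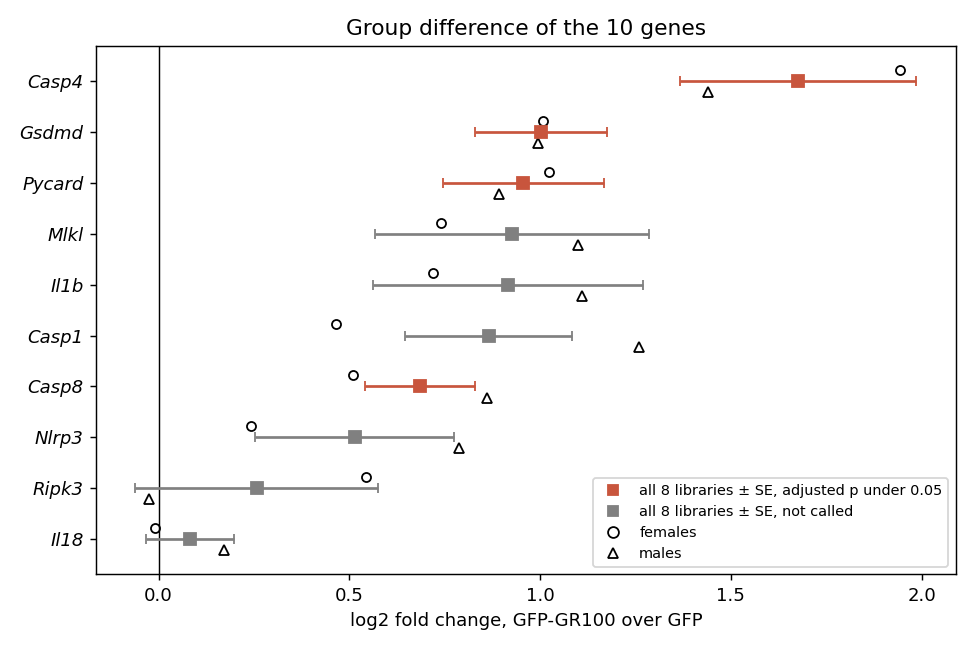
Group difference as log2 fold change, GFP-GR100 over GFP (x axis), for each gene, with squares for the fit over all 8 libraries ± SE (red where the adjusted p was under 0.05, grey otherwise), open circles for females and open triangles for males. Casp4 is the farthest to the right at 1.68, Il18 is at 0.08, and Casp1 has the widest gap between the sexes.

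The sexes were compared within the same data, with 2 animals of each sex in a group. The share of counts at the ribosomal RNA locus Yam1 followed the same split of the libraries. It was 6.94% and 3.97% in GFP females and 2.31% and 2.11% in GFP males. In GFP-GR100 it was 1.87% and 1.58% in females and 5.20% and 5.82% in males. Differences between the sexes in the group effect cannot be told apart from this share. None of the 10 genes showed a group effect that differed between males and females by edgeR's test of the product of sex and group, where 0.0524% of all genes (11 genes) were called. At an unadjusted p under 0.05 the count was also 0 of 10, where 16.4% of all genes passed. DESeq2 and limma-voom likewise called 0 of the 10, though DESeq2 called 567 genes in all. The gap was widest for Casp1, whose log2 fold change was 0.46 in females and 1.26 in males (difference 0.80, SE 0.37, adjusted p = 0.306). Within males alone Casp1, Casp4, Casp8 and Gsdmd were called (adjusted p = 0.0145, 0.0484, 0.0195 and 0.0269), where 9.33% of all genes were, and within females 0 were called by edgeR, where 0.881% of all genes were. At an unadjusted p under 0.05, 4 of 10 passed in females, where 9.42% of all genes did, and 8 of 10 in males, where 27% of all genes did. Log2 fold changes were above 0 for 9 of 10 genes in females and for 9 of 10 in males, where 42.9% and 50.3% of all genes were above 0, with Il18 at -0.01 in females and Ripk3 at -0.02 in males.

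Levels were compared between genes per length, as the deposited RPKM (counts per kilobase of gene model and scaled to the library's gene counts). In GFP, Il18 stood first at 16.0 ± 2.89 RPKM and did not overlap with the next, Pycard at 1.68 ± 0.675 RPKM. Gsdmd (1.27 ± 0.349), Casp1 (1.20 ± 0.248) and Casp8 (0.885 ± 0.0795 RPKM) followed, and each of these overlapped in range with its neighbour in the order, from Pycard down to Casp8. Nlrp3 stood apart on both sides at 0.337 ± 0.114 RPKM, and Ripk3, Il1b, Mlkl and Casp4 closed the order at 0.156, 0.153, 0.131 and 0.117 RPKM, each overlapping with the next. In GFP-GR100 the first 6 places were the same, and Casp4 stood in the seventh at 0.386 ± 0.0466 RPKM and Ripk3 in the last at 0.196 ± 0.0533 RPKM. Pycard (3.39 ± 0.377) and Gsdmd (2.65 ± 0.146 RPKM) no longer overlapped in GFP-GR100. The listed gene lengths bear on this order. Il18 is listed with 714 bases against 1031 bases of exon in GENCODE M21, and Pycard with 1405 against 3800. The deposited Il18 model also starts 20573 bases after its RefSeq start.

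Set against the microglial markers, Casp4 and Gsdmd were higher in every GFP-GR100 library than in any control, Il18 was lower, and the other 7 genes overlapped. The summed level of the 20 microglial markers was 1.64-fold higher in GFP-GR100, and each gene was divided by that sum in the same library. Casp4 stood at 0.799, 0.341, 0.865 and 0.559 CPM per 1000 CPM of microglial markers in GFP and at 1.38, 1.13, 1.13 and 1.45 in GFP-GR100, a ratio of 1.98 between the group means. These values did not overlap. Gsdmd went from 3.54, 3.57, 3.68 and 2.81 to 4.14, 4.06, 4.22 and 4.27 per 1000 CPM of markers, also without overlap, at a ratio of 1.23. Relative to the same sum Il18 was lower in all GFP-GR100 libraries, at 10.5, 10.3, 12.6 and 11.6 against 16.5, 20.2, 16.6 and 17.0 in GFP, a ratio of 0.641. Ratios of the other 7 genes ran from 0.724 for Ripk3 to 1.20 for Pycard. No test was made on these ratios, and the share of all genes without overlap under the same division was not computed. The sum itself did not overlap between the groups (594 to 847 CPM in GFP and 1025 to 1166 CPM in GFP-GR100). A gene with nearly the same CPM in both groups, as Il18 at 1.06-fold, therefore tends to come out lower by this division. The same 3 genes were free of overlap with the geometric mean of the markers or with 6 homeostatic markers alone as the denominator, both chosen after seeing the data, with ratios of 1.99 and 2.14 for Casp4, 1.23 and 1.33 for Gsdmd and 0.639 and 0.701 for Il18.

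**Figure D3:**
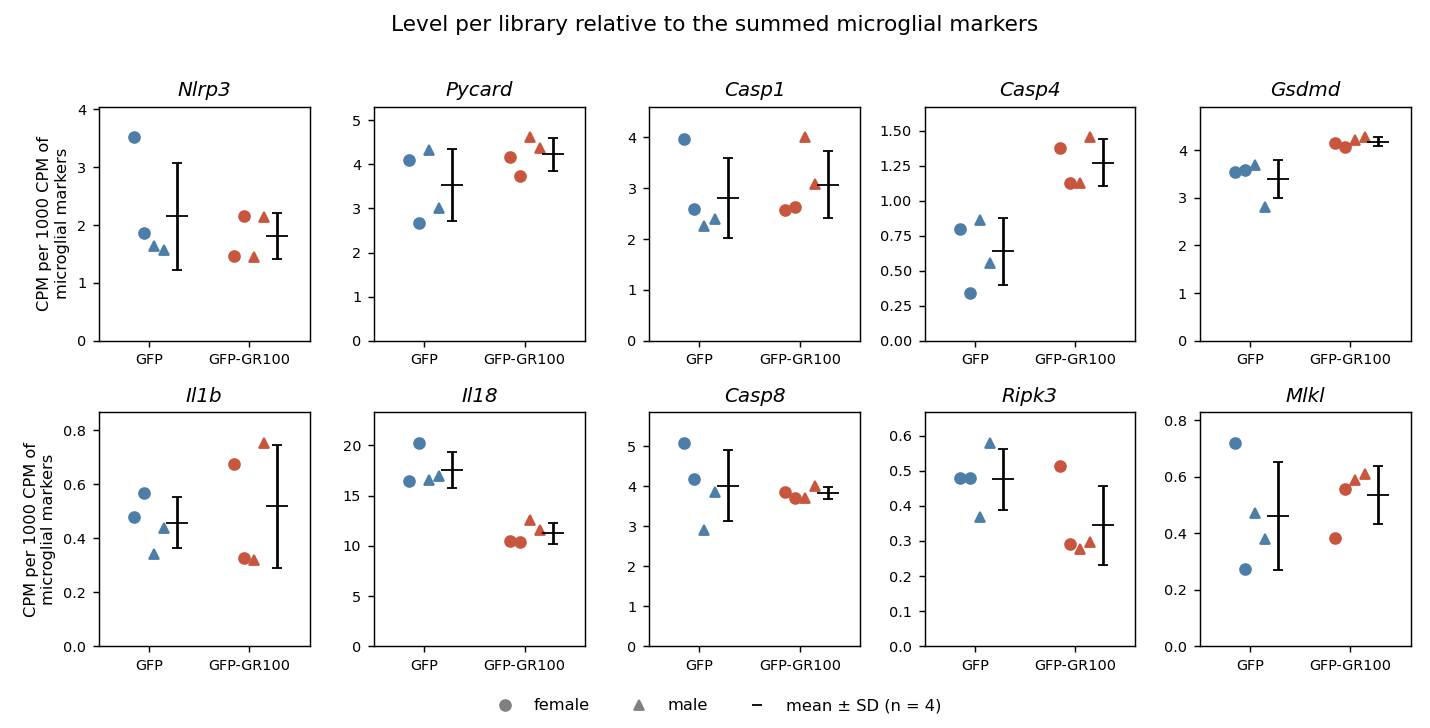
CPM of each gene per 1000 CPM of the 20 summed microglial markers (y axis, from 0) in each library, where females are circles, males are triangles and black bars give the mean ± SD (n = 4). Casp4 and Gsdmd are higher in GFP-GR100 (red) than in GFP (blue), Il18 is lower, and the other 7 genes overlap.

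Other genes of the same pathways were followed as a list of 58, of which 48 passed the filter on low counts. This list too was chosen with earlier results of these data known, which limits its comparison with all genes. Of the 48, 8 rose and 0 fell, again where 2.19% of all genes rose, and the median log2 fold change was 0.22. At an unadjusted p under 0.05, 15 were higher and 2 lower, where 8.23% and 7.37% of all genes were. DESeq2 called 12 higher and 0 lower, where it called 3.45% of all genes higher and 0.953% lower. With limma-voom 9 were higher and 0 lower, where 2.27% and 0.272% of all genes were. By role, 5 of 15 sensors rose, 2 of 11 genes of the IL-1 family and 1 of 17 in necroptosis and death-receptor signalling. Of the 5 caspases and gasdermins tested, 0 passed by edgeR, DESeq2 or limma-voom, and 0 had an unadjusted p under 0.05. The 10 genes that were too low to test were Nlrp12, Mefv, Gsdma, Gsdmc, Gsdmc2, Gsdmc3, Gsdmc4, Il18rap, Fasl and Tnf. Of these Tnf, a trigger of necroptosis, held 2, 2, 2 and 3 counts in GFP and 10, 12, 5 and 23 counts in GFP-GR100.

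The 5 sensor genes that rose were P2rx7, Nlrp1b and 3 Naip genes. P2rx7, the ATP-gated channel that triggers Nlrp3 through loss of potassium, stood at 10.8, 9.95, 10.3 and 8.88 CPM in GFP and at 14.4, 17.4, 18.4 and 19.8 CPM in GFP-GR100 (log2 fold change 0.80, SE 0.11, edgeR adjusted p = 0.00164). Its groups were well apart. Nlrp1b, the sensor of anthrax lethal factor, rose from 0.644 ± 0.0682 to 1.93 ± 0.668 CPM (2.99-fold, adjusted p = 0.0029). Naip2, Naip5 and Naip6, which bind bacterial flagellin or secretion proteins and signal through Nlrc4, rose 2.67-fold, 3.07-fold and 3.66-fold. Naip1 and Nlrp1a, also tested, did not pass (edgeR adjusted p = 0.770 and 0.402). The Naip genes are close copies of one another, as are the Nlrp1 genes, so counting could split or share their reads. The calls of the 3 Naip genes may therefore not be independent of one another. Nlrc4 itself was at 0.306 ± 0.0994 and 0.336 ± 0.0506 CPM and did not pass (adjusted p = 0.848).

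In the IL-1 family the ligand Il1a, an alarmin that needs no Casp1, rose from 0.812 ± 0.204 to 1.71 ± 0.0758 CPM (log2 fold change 1.07, edgeR adjusted p = 0.0173), and lost its call without GFP 2 or 4 or without GFP-GR100 2 or 3 (0.0538 to 0.0609). Il1rn, the natural antagonist of the IL-1 receptor, rose from 0, 0.0270, 0.178 and 0.0496 CPM to 0.307, 0.609, 0.400 and 0.380 CPM (adjusted p = 0.0469). At 0 to 16 counts per GFP library its fold change is poorly fixed, and it passed under 8 of 16 alternatives. Of the death-receptor genes Tnfrsf1a, the main receptor of tumour necrosis factor, rose from 9.05 ± 0.658 to 13.7 ± 0.825 CPM (1.51-fold, adjusted p = 0.00345). Zbp1, a nucleic acid sensor that activates Ripk3, is named here after its values were seen. It was at 0.956, 0.500, 1.89 and 0.323 CPM in GFP and at 2.64, 3.22, 4.48 and 3.49 CPM in GFP-GR100, without overlap, but did not pass by edgeR (log2 fold change 1.93, SE 0.47, adjusted p = 0.0958), though DESeq2 and limma-voom called it. Of the 48 tested pathway genes, 12 were higher without overlap and 1 was lower, where 5.03% and 3.03% of all genes were. The lower gene was Ticam1, also named after its values were seen. Its means were 6.09 CPM in GFP and 4.92 CPM in GFP-GR100, and it did not pass (log2 fold change -0.31, SE 0.12, edgeR adjusted p = 0.259).

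**Figure D4:**
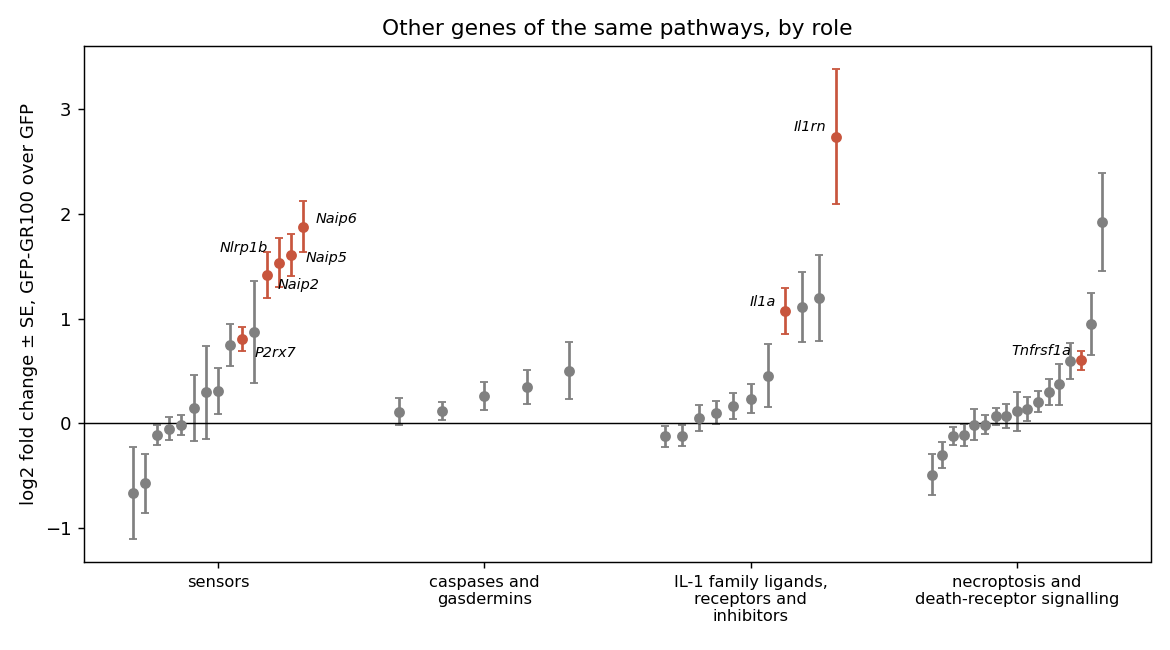
Group difference as log2 fold change ± SE, GFP-GR100 over GFP (y axis), for the 48 tested genes of the pathway list, ordered by size within each role (x axis). The 8 genes that rose are red and named, 5 of them sensors, and grey genes did not pass.

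The genes whose pattern over the 8 libraries was nearest to that of Gsdmd were Itgb2, Parp3 and Klhl6, by the root mean square difference of log2 CPM after each gene was set to its own GFP mean (0.08, 0.09 and 0.09). Itgb2, the beta-2 integrin chain of leukocytes, stood at 5.06, 4.75, 7.04 and 4.42 CPM in GFP and at 9.92, 11.4, 10.9 and 11.5 CPM in GFP-GR100. As with Gsdmd, GFP 3 was the highest control and all GFP-GR100 libraries were above it. The 3 genes were picked for their likeness to Gsdmd over these same libraries. Their shared pattern and group differences near that of Gsdmd follow from this choice. Parp3, an ADP-ribosyltransferase, rose with a log2 fold change of 0.97 (adjusted p = 0.00433) and Klhl6, a Kelch-like adaptor of lymphoid cells, with 1.06 (adjusted p = 0.00298).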

How the data were processed

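Whole-number counts per gene and RPKM values are as the authors deposited them, in 1 table. TopHat2 version 2.1.0, CASAVA, DESeq2 and R version 3.4.1 and the mm10 build are named in the submitters' processing notes. The gene counter, annotation release and use of strand are not stated in the sources used here. Counts were tested with edgeR version 4.0.16 in R version 4.3.3: filterByExpr (minimum count 10, minimum total 15), which kept 20987 genes, TMM scaling, and the robust quasi-likelihood test with sex and group over all 8 libraries. P-values were adjusted by Benjamini-Hochberg over all genes tested, at a threshold of 0.05. The product of sex and group came from a second model. Fold changes give GFP-GR100 relative to GFP, with the SE derived from the F statistic. Alternatives used limma version 3.58.1, DESeq2 version 1.42.0, log2(RPKM + 0.1), other scalings and filters, and fits without each library. The genes and lists were chosen with earlier results of these data known. All 10 genes and each called pathway gene are named. The rule also named the smallest p where a subgroup had no call, which is not reported here. Marker lists not named in the report gave 0 calls of 8 T and NK, 7 border macrophage, 7 neuron, 6 oligodendrocyte and 5 endothelial genes tested, and 1 of 7 astrocyte genes rose.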

Additional observations from a re-analysis of the deposited data

Results flagged for a closer look

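Within groups of 4, 38 sets of values were examined for a sample that stands far from the others, and 4 were found, where chance alone marks about 1 in 20. Casp8 was at 3.15 CPM in GFP 1, against 2.41 to 2.49 CPM in the other controls. Ripk3 was at 0.526 CPM in GFP-GR100 1, against 0.317 to 0.336 CPM, and Il1a at 1.82 CPM in the same library, against 1.65 to 1.68 CPM. The summed microglial markers were at 847 CPM in GFP 3, against 594 to 622 CPM in the other GFP libraries.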

How the results depend on the processing

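The log2 fold changes of the 10 genes kept their sign under all alternatives in which they were tested. The count of 4 that rose ran from 2 to 5 when single libraries were left out, with 2 without GFP 2, GFP 4, GFP-GR100 2 or GFP-GR100 3. It was 5 with no filter, DESeq2, limma-voom, limma-trend on RPKM or the rRNA share in the model. With no sex covariate it was 3, as it was with a mean of at least 1 CPM, where Casp4 was not tested. The 8 pathway genes became 13 with no filter. Over all genes, 460 rose and 68 fell. These counts were 1168 and 361 with no filter and 724 and 200 with DESeq2, and ran from 304 to 514 and from 19 to 77 without single libraries. The number that fell was 36 with a mean of at least 1 CPM, 30 with limma-trend on log2(RPKM + 0.1), 35 with no sex covariate, 115 without GFP 3 and GFP-GR100 4 and 226 with the rRNA share, the last 2 chosen after seeing the data. The 11 genes of the sex interaction were 1353 with no filter, 567 with DESeq2 and 1 to 828 without single libraries, with 0 of the 10 genes in each. The interaction of Gsdmd was -0.01 and changed sign with limma-voom (0.0364). Leaving out single libraries, chosen for the interaction after seeing the data, gave ranges that crossed 0 for Casp4 (-1.26 to 0.11), Pycard (-0.56 to 0.40), Nlrp3 (-0.0151 to 0.96), Gsdmd (-0.39 to 0.44), Il1b (-0.31 to 0.91), Il18 (-0.0346 to 0.37) and Mlkl (-0.52 to 0.93). The cause of these shifts was not tested. No paired analysis was possible because replicate numbers follow accession order and pair no animals. Counts under about 60 per library limit Il1b, Ripk3 and Mlkl. Casp4 was also low in the controls, at 30, 15, 66 and 28 counts in GFP 1 to 4, which limits its fold change.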
